A study of Mus musculus with 12 samples.

Results

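The vacuolar ATPase (V-ATPase), the Ragulator complex and the regulators of the transcription factor TFEB were examined in mouse bone marrow neutrophils as a set of 37 genes. The genes were chosen by name from what their products are known to do, but with earlier results of these data known. Counts of members beside shares of all genes are therefore descriptions and do not test the set. All 37 were found among the 29737 genes of the count table, and all 37 passed the filter on low counts that left 16761 genes for testing. The members were 17 V-ATPase subunits and accessory proteins, 5 Ragulator subunits, 3 Rag GTPases, folliculin with its 2 partners, 3 MiT/TFE transcription factors, the arginine sensor Slc38a9, 3 genes of mTORC1 and its activator Rheb, and the 2 large subunits of the TSC complex.

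The neutrophils came from wild-type mice, were enriched with magnetic beads as Ly6G+ cells and were cultured for 24 h. PBS was the control, and TCA, GCA and Tβ-MCA were given as the bile acids, with 3 samples in each of the 4 groups. TCA and GCA are conjugates of cholic acid with taurine and glycine, and Tβ-MCA is the taurine conjugate of β-muricholic acid. TCA and GCA were used at 200 μM, while for Tβ-MCA the sample labels give 10 μM and the methods of the study give 200 μM, so a difference between Tβ-MCA and TCA holds the compound and possibly the dose. The methods describe the animals of the study as female C57BL/6, bought at an age of 4 to 6 weeks, without tying this to the neutrophil cultures. The number of mice behind the cultures, and whether the samples of a group came from separate animals, are not given in the sources used here. The p-values therefore measure the spread between these samples, which may be technical.

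The V-ATPase is a proton pump that acidifies lysosomes and other vesicles. Its V1 sector hydrolyses ATP on the cytosolic side and its V0 sector carries protons across the membrane. On the lysosomal surface the pump contacts Ragulator, which anchors the Rag GTPases, and the Rags recruit mTORC1 when amino acids are plentiful. Folliculin, with Fnip1 or Fnip2, is the GTPase activating protein of RagC and RagD and thereby governs whether TFEB and TFE3 are phosphorylated by mTORC1 and held in the cytosol. The TSC complex acts from the other side, since it switches off Rheb, the GTPase that activates mTORC1.

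Total counts lay between 32757389 and 41375925 per sample. All 12 neutrophil markers examined were detected, S100a8 among them at 1270.4 to 1805 CPM, the count scaled to a common library size. Monocyte and macrophage markers were present as well, and none of the 12 was at 0 in all samples. Their summed level was 1168 to 1250.4 CPM with PBS, and Tβ-MCA replicates 3, 4 and 5 summed to 395, 514 and 1001 CPM, while 12 of 12 had a negative log2 fold change against PBS and 0 passed the test. Without Tβ-MCA replicate 5, 8 of the 12 were lower with Tβ-MCA in edgeR, beside 9.44% of all genes tested. Much of the monocyte sum was F13a1, at 584, 519 and 529 CPM with PBS and 54.8, 75.9 and 367 CPM with Tβ-MCA. Cd68 moved less, with means of 176 and 156 CPM. The summed neutrophil markers lay between 33741 and 40687 CPM with PBS and between 26258 and 30856 CPM with Tβ-MCA, and 4 of the 12 were lower, beside 3.18% of all genes tested. Without Tβ-MCA replicate 5, 10 of the 12 neutrophil markers were lower, beside 9.44% of all genes tested. Most of the sum was S100a9, and the single markers changed unevenly, with a negative log2 fold change in 11 of 12. Mpo had 209, 195 and 206 CPM with PBS and 32.3, 44.5 and 154 CPM with Tβ-MCA. Elane had 21.8, 27.8 and 25.9 CPM with PBS and 2.72, 5.94 and 19.2 CPM with Tβ-MCA. The means of Csf3r were 994 and 1030 CPM. In bulk RNA, fewer cells of a type and less RNA per cell cannot be told apart. The part of these shifts in the results on the members was not tested.

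The samples of 2 groups were uneven. Among the 745 genes of the whole table that were higher with Tβ-MCA than with PBS, Tβ-MCA replicate 5 was the lowest of its group in 94.4%, against 35.8% of all genes tested. GCA replicate 4 was the highest GCA sample in 87.5% of the same 745 genes, against 33.6% of all genes tested. It was the lowest GCA sample in 81.8% of the 533 genes that were lower with Tβ-MCA, against 32.3% of all genes tested. GCA replicate 4 stood above every PBS sample in 96.1% of the 745 genes, whereas the other GCA samples and the TCA samples did so in 38.3% to 47.5%. Its summed monocyte markers were 915 CPM, against 1128 and 1229 CPM in the other GCA samples. Of this sum, F13a1 gave 574, 315 and 488 CPM in GCA replicates 3, 4 and 5. Cd68 had 138, 177 and 213 CPM there, so the markers did not shift alike. What sets these 2 libraries apart was not tested, and the counts of members called with Tβ-MCA are given with and without them.

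Before the comparisons, the level of each member with PBS was taken as RPKM, which divides a count by the exon length of the gene and by the library size, so that genes can be compared. The most abundant member was Atp6v1f, the F subunit of V1, at 276 ± 16.4 RPKM (SD, n = 3), followed by the G subunit gene Atp6v1g1 at 251 ± 36.9 RPKM (SD, n = 3). These neighbours overlapped, since Atp6v1f lay at 259.5, 292 and 276 RPKM and Atp6v1g1 at 210.2, 282 and 261 RPKM in PBS replicates 3, 5 and 6. The E subunit gene Atp6v1e1 at 148 ± 11.7 and the D subunit gene Atp6v1d at 141 ± 9.93 RPKM (SD, n = 3) came next. The lowest V-ATPase gene was Atp6v1h, the regulatory H subunit, with 1.99, 2.10 and 2.26 RPKM in the PBS samples. The V1 genes thus spanned over 2 orders of magnitude on the RPKM scale, which depends on the exon length assigned to each gene. That length is 9746 bases for Atp6v1h and 1063 bases for Atp6v1f. Exons of Atp6v1h overlap those of Rgs20 on the other strand. In CPM, which does not divide by length, the PBS means were 20.9 for Atp6v1h and 297 for Atp6v1f, and Atp6v1e1 was highest at 616.

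**Figure D1:**
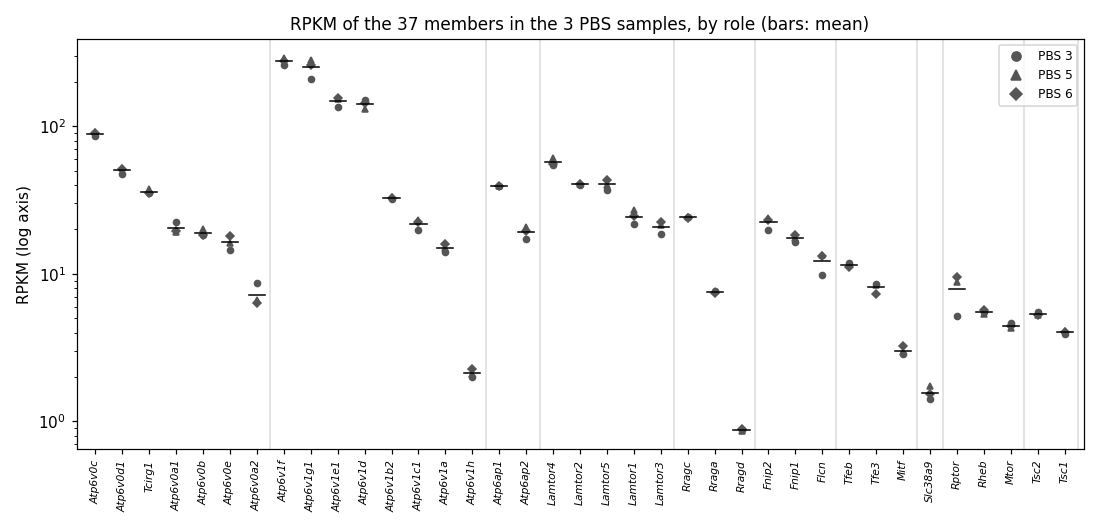
RPKM of each member (log axis) in the 3 PBS samples, grouped by role from the V0 sector on the left to the TSC complex on the right and sorted by mean within each role; points are samples and horizontal bars are means. Atp6v1f leads at a mean of 276 RPKM, and Rragd is lowest at 0.878 RPKM.

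The docking and signalling genes sat below the 4 leading V1 genes. Ragulator genes lay between 20.9 RPKM for Lamtor3 and 56.9 RPKM for Lamtor4. Rragc was at 24.3 RPKM and made up 96.5% ± 0.0622 (SD, n = 3) of the summed RPKM of Rragc and Rragd, while Rraga, the gene of RagA, with which RagC or RagD pairs, was at 7.59 RPKM. Rragd was the lowest of all 37 members at 0.878 ± 0.00896 RPKM (SD, n = 3), and Slc38a9 was next at 1.57 ± 0.153 RPKM (SD, n = 3). In CPM, without division by length, Rraga at a mean of 12.4 lay below Slc38a9 at 14.1. Among the MiT/TFE factors, Tfeb held 47.9% ± 0.567 of the summed RPKM, Tfe3 33.7% ± 1.61, Mitf 12.6% ± 1.38 and Tfec, a factor outside the 37, 5.82% ± 0.605 (SD, n = 3 each). The order of Tfeb and Tfe3 depends on their exon lengths of 5669 and 9261 bases. In CPM the PBS mean of Tfe3, 76.1, was above that of Tfeb, 66.2. Of the V0 a subunits, Tcirg1 (a3) held 56.6% ± 3.12, Atp6v0a1 32.0% ± 1.74 and Atp6v0a2 11.32% ± 1.4995 (SD, n = 3 each).

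The first comparison asked which members changed with Tβ-MCA. Against PBS, 9 of the 37 members were higher and 0 were lower at an adjusted p under 0.05 in edgeR, while 7.62% of all genes tested were called, 4.44% higher and 3.18% lower. The 9 were folliculin and both of its partners (Flcn, Fnip1, Fnip2), the Rag GTPase gene Rragc, the arginine sensor gene Slc38a9, both TSC genes (Tsc1, Tsc2) and 2 V1 subunit genes (Atp6v1c1, Atp6v1e1). In none of the 37 did the change reach 2-fold with an unadjusted p under 0.05, the thresholds of the study, which 2.95% of all genes tested passed. The log2 fold change was positive in 30 members and negative in 7, with a median of 0.09 against 0.00 over all genes tested. An unadjusted p under 0.05 was reached by 12 members, all with a positive change, and by 24.9% of all genes tested. In 12 members every Tβ-MCA sample lay above every PBS sample, where 14.1% of all genes tested did so.

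Leaving out Tβ-MCA replicate 5 gave 12 members, all higher, where Rragd, Tcirg1 and Atp6v0d1 joined the 9, and 18% of all genes were then called, 8.52% higher. Without GCA replicate 4 the count was 10, with Rragd added, beside 7.33% of all genes, and without both libraries it was 12 beside 17.9%; these fits were chosen after seeing the data. The calls were lost when any of the other 5 samples of these groups was left out. Without PBS replicate 3, 5 or 6, or Tβ-MCA replicate 3 or 4, 0 members were called in edgeR, with 11 to 13 members at an unadjusted p under 0.05. That level was reached by 2875 to 3792 of the 17106 to 17136 genes tested in these fits. In those 5 fits 168 genes of the whole table were called without PBS replicate 6 and 0 in the others. The fold changes of the 9 members kept their sign in each of them.

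**Figure D2:**
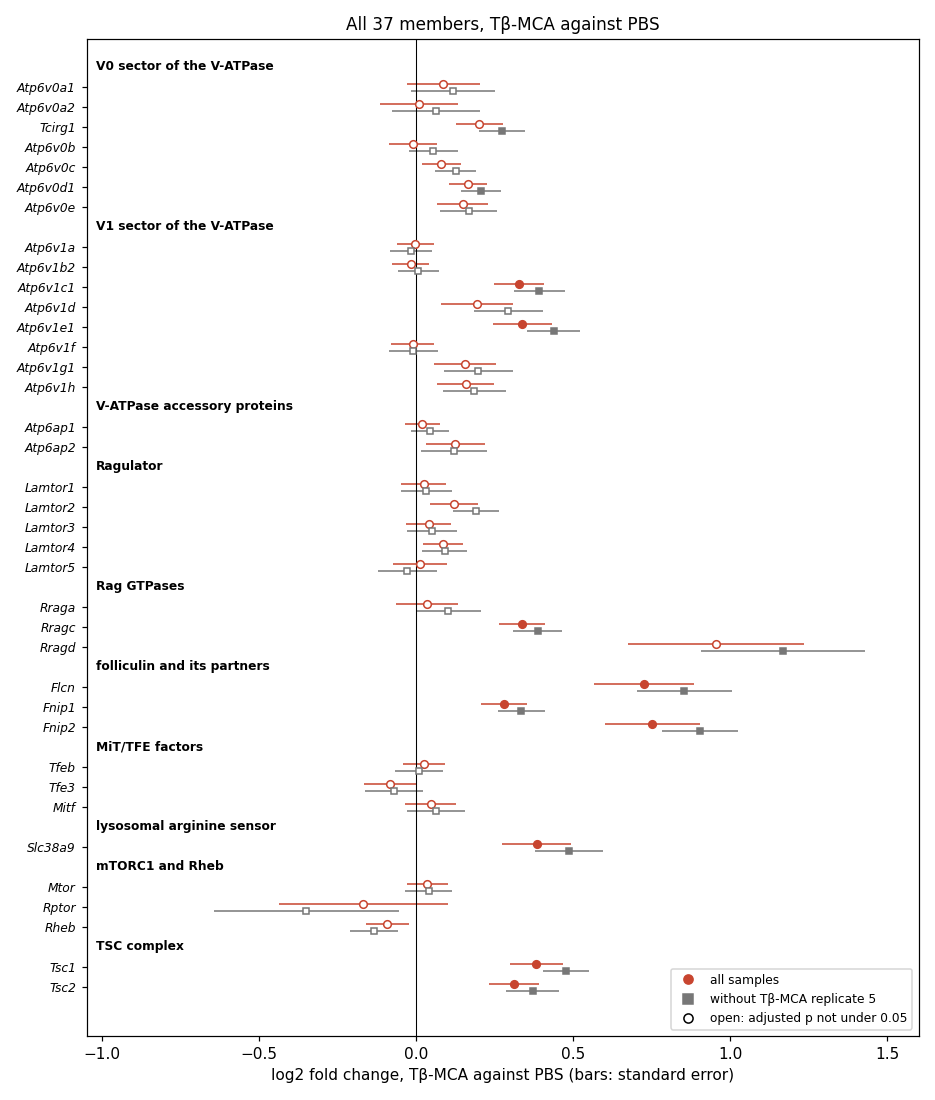
Log2 fold change of each member, Tβ-MCA against PBS, by role, with all samples (circles) and without Tβ-MCA replicate 5 (squares). Bars are standard errors and filled symbols have an edgeR adjusted p under 0.05; 9 circles and 12 squares are filled, all to the right of 0.

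TFEB and its relatives bind E-box sequences of the CLEAR type, so the promoters of the members were searched for the letters CACGTG and for the longer TCACGTGA, which contains them; both read the same on either strand. RefSeq promoters from 250 bases before to 50 after the start (GRCm38.p6) were matched for 31 of the 37 members. CACGTG was found in 22.5% of their 40 promoters and in 7.15% of all 32851 promoters. TCACGTGA was found in 7.5% against 0.974%, and the same letters between a G and a C in 0 against 0.326%. Among the members higher with Tβ-MCA, 8 had a promoter entry and 2 of them, Rragc and Fnip1, held CACGTG. Among the other members, 23 had an entry and 7 held it. A match is a description of these letters only. The windows below are on the plus strand before the gene start, in lower case with CACGTG in capitals. Rragc (chr4:123917294-123917353) and Fnip1 (chr11:54438077-54438136) were higher with Tβ-MCA, and Lamtor1 (chr7:101905742-101905801) and Lamtor4 (chr5:138255335-138255394) did not pass the test against PBS, so they show the same letters in genes with different results.
Rragc: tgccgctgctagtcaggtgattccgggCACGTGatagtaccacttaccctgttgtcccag
Fnip1: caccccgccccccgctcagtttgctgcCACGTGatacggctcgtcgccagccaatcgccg
Lamtor1: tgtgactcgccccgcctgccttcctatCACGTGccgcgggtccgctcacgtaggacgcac
Lamtor4: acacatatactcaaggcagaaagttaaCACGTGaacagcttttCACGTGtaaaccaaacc
The motif ended 107 bases before the start in Rragc, 70 in Fnip1, 63 in Lamtor1 and 115 and 99 in Lamtor4.

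The largest changes among the 9 were in Fnip2 and Flcn, which belong to the folliculin complex. Fnip2 (chr3:79455974-79567796, positions here in GRCm38), the more abundant partner of folliculin, had 170.5, 202 and 193 CPM in PBS replicates 3, 5 and 6 and, in Tβ-MCA replicates 3, 4 and 5, 355, 351 and 247 CPM. Each Tβ-MCA sample was above each PBS sample, and replicate 5 was the nearest to PBS. The log2 fold change was 0.75 ± 0.15 (SE), which is 1.68-fold (edgeR, adjusted p = 0.023). Flcn (chr11:59791408-59810016), the subunit that activates GTP hydrolysis on RagC and RagD, had 43.7, 58.1 and 57.4 CPM with PBS and 92.2, 99.8 and 71.4 CPM with Tβ-MCA, again without overlap. Its log2 fold change was 0.73 ± 0.16 (SE), or 1.65-fold (edgeR, adjusted p = 0.0271). Fnip1 (chr11:54438199-54518235), the other partner, had the smallest fold change of the 9, and the difference between the partners was not tested. It lay at 121, 125 and 131 CPM with PBS and at 153, 164 and 140.4 CPM with Tβ-MCA (log2 fold change 0.28 ± 0.07, SE; edgeR, adjusted p = 0.0331). With the replicate number added to the edgeR model as a block, Flcn and Fnip2 were not called (adjusted p = 0.104 and 0.107). Fnip1 stayed called in that fit (adjusted p = 0.0217).

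The balance of both partners was taken as well. Fnip2 made up 54.6%, 57.9% and 55.8% of the summed RPKM of Fnip1 and Fnip2 in the PBS samples and 66.4%, 64.6% and 59.98% in the Tβ-MCA samples. The groups did not overlap, but an exact permutation test of 3 against 3 samples cannot go below p = 0.1, and no test was made. The share was 54.7% ± 1.16 with TCA and 58.6% ± 2.86 with GCA (SD, n = 3 each).

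The Rag GTPases carry the amino acid signal from Ragulator to mTORC1, and folliculin acts on RagC and RagD. Rragc (chr4:123917446-123936997), whose promoter window is printed above, had 83.5, 82.3 and 80.3 CPM with PBS and 109, 106 and 96.2 CPM with Tβ-MCA, and the groups did not overlap. Its log2 fold change was 0.34 ± 0.07 (SE; edgeR, adjusted p = 0.0235). Exons of Rragc overlap those of 4930535I16Rik on the other strand. Rragd (chr4:32983037-33022180), its paralog, had 4.68, 4.53 and 4.58 CPM with PBS and 11.5, 9.15 and 6.08 CPM with Tβ-MCA. Its log2 fold change of 0.95 ± 0.28 (SE) was numerically above those of the other members but missed the threshold over all samples (edgeR, adjusted p = 0.0575). It was 1.17 ± 0.26 without Tβ-MCA replicate 5 (edgeR, adjusted p = 0.00786). As a share of Rragc and Rragd, Rragd was at 3.49%, 3.43% and 3.56% of RPKM in the PBS samples and 6.39%, 5.31% and 3.92% in the Tβ-MCA samples, so Rragc was the more abundant transcript in each of them. Rraga, the RagA gene, had a log2 fold change of 0.03 ± 0.10 (SE; edgeR, adjusted p = 0.877).

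**Figure D3:**
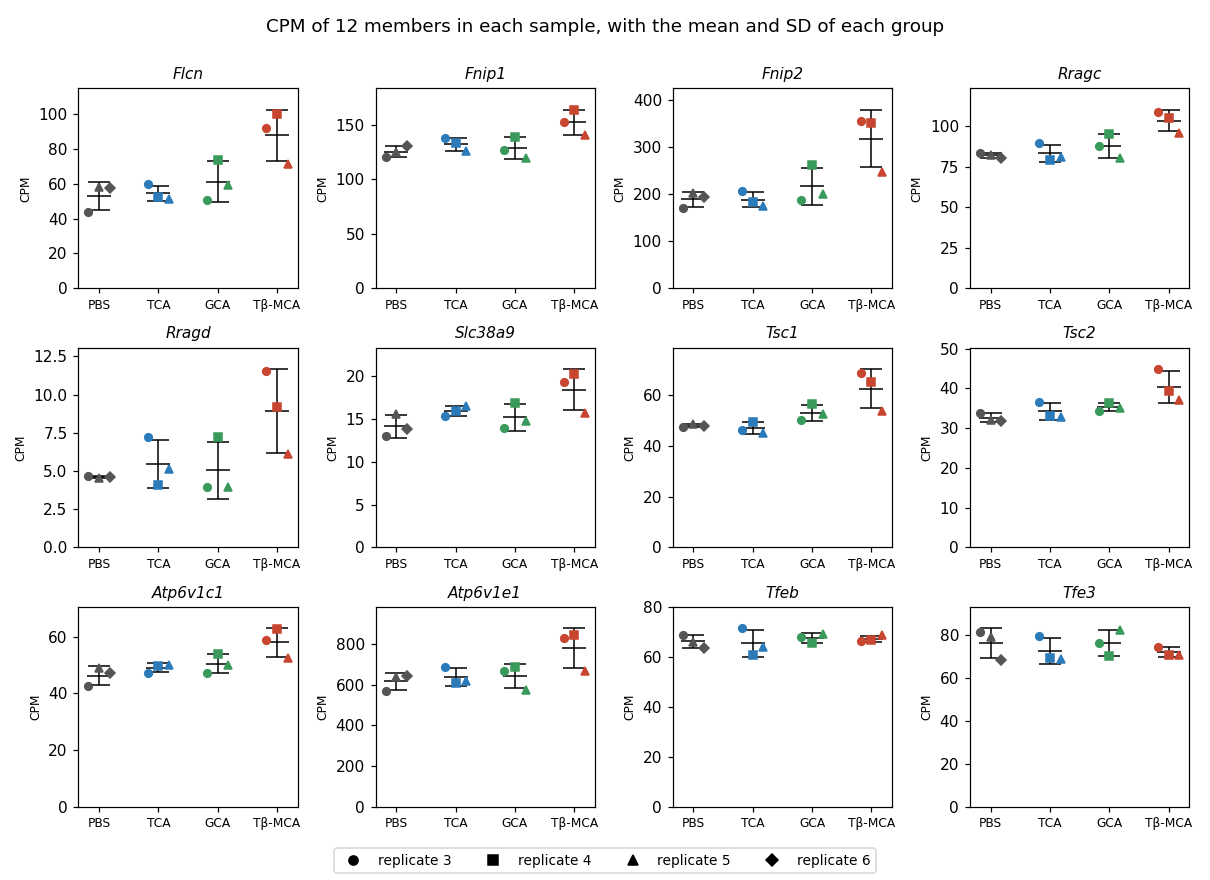
CPM of 12 members (vertical axes from 0) in each sample of the 4 groups; symbols mark the replicate number, and bars the mean and SD of 3 samples. In Flcn, Fnip2 and Rragd the Tβ-MCA samples lie above all PBS samples with replicate 5 lowest, and GCA replicate 4 lies above the other GCA samples; Tfeb and Tfe3 overlap between all groups.

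Slc38a9 (chr13:112660766-112738743), the lysosomal transporter that reports arginine to the Rags, had 12.996, 15.5 and 13.8 CPM with PBS and 19.4, 20.2 and 15.7 CPM with Tβ-MCA. Tβ-MCA replicate 5 lay just above the highest PBS sample. The log2 fold change was 0.38 ± 0.11 (SE; edgeR, adjusted p = 0.0473).

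Both TSC genes were higher as well. Tsc1 (chr2:28641228-28691167), which stabilises the complex, had 47.3, 48.8 and 47.9 CPM with PBS and 68.7, 65.1 and 53.9 CPM with Tβ-MCA (log2 fold change 0.38 ± 0.08, SE; edgeR, adjusted p = 0.0235). The PBS samples differed by less than 2 CPM and all Tβ-MCA samples were above them. Tsc2 (chr17:24595937-24632629), the subunit that acts on Rheb, had 33.9, 32.0 and 31.9 CPM with PBS and 44.9, 39.4 and 37.02 CPM with Tβ-MCA (log2 fold change 0.31 ± 0.08, SE; edgeR, adjusted p = 0.0331). Exons of Tsc2 overlap those of Pkd1 on the other strand, and the strand setting of the counting is not given in the sources used here.

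In the V1 sector, 2 of 8 genes were higher. Atp6v1c1 (chr15:38661904-38692443), the C subunit that takes part in the reversible joining of V1 to V0, had 42.6, 48.9 and 47.2 CPM with PBS and 58.8, 62.6 and 52.6 CPM with Tβ-MCA (log2 fold change 0.33 ± 0.08, SE; edgeR, adjusted p = 0.0291). Atp6v1e1 (chr6:120794305-120822793), a subunit of the stalks between the sectors, had 568, 637 and 644 CPM with PBS and 828, 843 and 666 CPM with Tβ-MCA (log2 fold change 0.34 ± 0.09, SE; edgeR, adjusted p = 0.042). In both genes the groups were separate, though Tβ-MCA replicate 5 was close to the PBS samples. Exons of Atp6v1e1 overlap those of Slc25a18 on the other strand. The A and B subunit genes, Atp6v1a and Atp6v1b2, had log2 fold changes of 0.00 ± 0.06 and -0.02 ± 0.06 (SE). Atp6v1f, the most abundant member by RPKM, had 283, 314 and 295 CPM with PBS and 277, 314 and 293 CPM with Tβ-MCA (log2 fold change -0.01 ± 0.07, SE; edgeR, adjusted p = 0.942). Atp6v1h had 19.9, 20.7 and 22.1 CPM with PBS and 22.3, 25.2 and 22.3 CPM with Tβ-MCA (log2 fold change 0.16 ± 0.09, SE; edgeR, adjusted p = 0.298).

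In the V0 sector, 0 of 7 genes passed the edgeR test over all samples, and 2 had an unadjusted p under 0.05. These were Tcirg1, the a3 subunit gene, best known from osteoclasts, and Atp6v0d1, the d subunit that couples the rotor. Tcirg1 had 161, 168 and 159 CPM with PBS and 204, 189 and 168 CPM with Tβ-MCA, and the lowest Tβ-MCA sample fell just inside the range of PBS. Its log2 fold change was 0.20 ± 0.08 (SE; edgeR, adjusted p = 0.112) and 0.27 ± 0.07 without Tβ-MCA replicate 5 (adjusted p = 0.0168). Atp6v0d1 had 87.0, 94.1 and 92.4 CPM with PBS and 105, 105 and 96.4 CPM with Tβ-MCA. Its log2 fold change of 0.17 ± 0.06 (SE; edgeR, adjusted p = 0.102) became 0.21 ± 0.06 without that sample (adjusted p = 0.0345). The other V0 genes had log2 fold changes between -0.01 and 0.15, and the accessory protein genes Atp6ap1 and Atp6ap2 were at 0.02 ± 0.06 and 0.12 ± 0.09 (SE).

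Ragulator, the MiT/TFE factors and mTORC1 held no member that passed the test with Tβ-MCA. The 5 Ragulator genes had log2 fold changes between 0.01 for Lamtor5 and 0.12 for Lamtor2, with edgeR adjusted p of at least 0.348, and 0 of 5 had an unadjusted p under 0.05. Lamtor2 had 49.7, 49.9 and 49.8 CPM with PBS and 59.2, 54.6 and 48.6 CPM with Tβ-MCA, so replicate 5 lay below PBS. Tfeb, the factor that drives lysosomal genes, had 68.9, 65.9 and 63.7 CPM with PBS and 66.4, 66.8 and 68.7 CPM with Tβ-MCA. Its log2 fold change was 0.02 ± 0.07 (SE; edgeR, adjusted p = 0.872), with an approximate 95% interval from -0.13 to 0.18. The transcript does not show where the protein is in the cell or whether it is phosphorylated. Tfe3 had 81.0, 79.1 and 68.3 CPM with PBS and 74.4, 70.6 and 70.5 CPM with Tβ-MCA (log2 fold change -0.08 ± 0.08, SE; edgeR, adjusted p = 0.578). Mitf had 18.2, 18.4 and 20.3 CPM with PBS and 19.4, 20.2 and 19.2 CPM with Tβ-MCA (log2 fold change 0.05 ± 0.08, SE; edgeR, adjusted p = 0.776).

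Mtor, the kinase, and Rheb, its activator, had log2 fold changes of 0.04 ± 0.07 and -0.09 ± 0.07 (SE; edgeR, adjusted p = 0.794 and 0.446). Rptor, the subunit of mTORC1 that binds the Rags, had a log2 fold change of -0.17 ± 0.27 (SE; edgeR, adjusted p = 0.76), with the widest spread among these 3. It lay at 71.3, 121 and 129 CPM in PBS replicates 3, 5 and 6 and, in Tβ-MCA replicates 3, 4 and 5, at 67.8, 99.9 and 117 CPM. Replicate 3 had the lowest Rptor level in all 4 groups. Replicate 3 was likewise the highest in all 4 groups for Atp6v0a1, Atp6v0a2 and Atp6v1d and the lowest for Atp6v1a, Atp6ap2, Lamtor3 and Lamtor5, which makes 8 of 37 members (21.6%) against 16.5% of all genes tested. Exons of Rptor overlap those of Rptoros on the other strand.

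**Figure D4:**
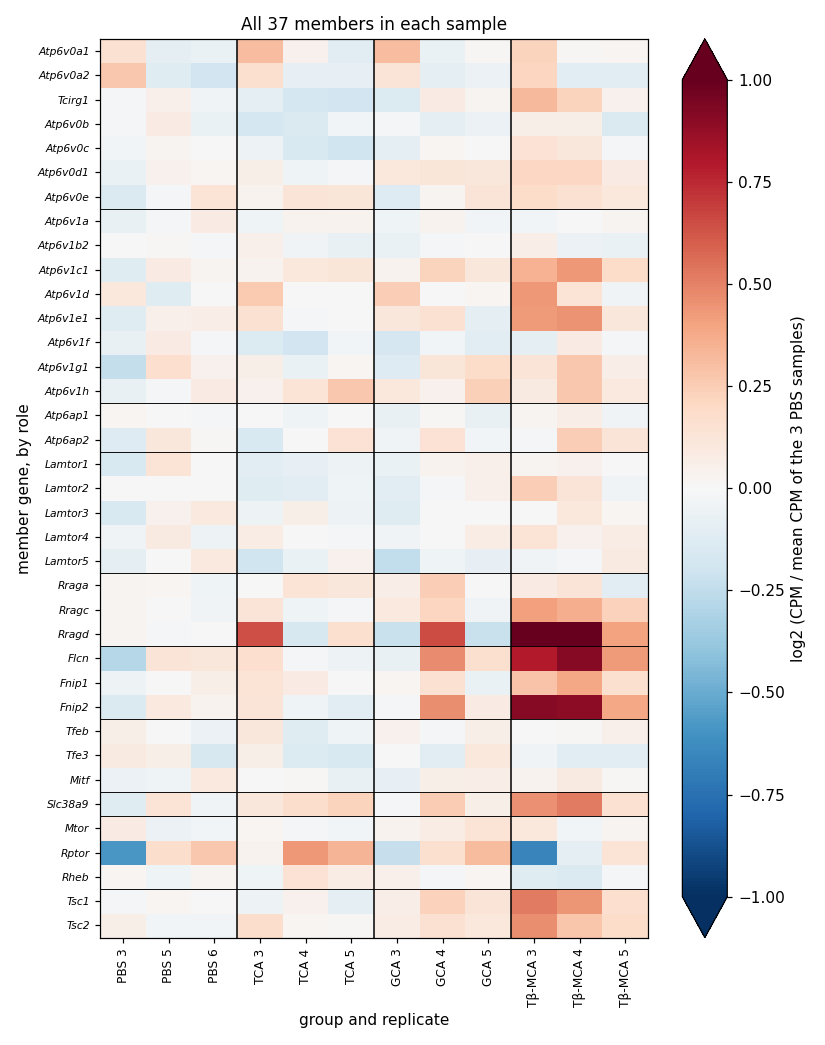
Log2 of CPM over the mean CPM of the 3 PBS samples for the 37 members (rows, by role) in each of the 12 samples (columns, by group and replicate); colors stop at 1 and -1, while values run from -0.66 to 1.33. The reddest cells are Rragd, Flcn and Fnip2 in Tβ-MCA replicates 3 and 4, and Rptor is blue in replicate 3 of PBS, GCA and Tβ-MCA.

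In each of the 9 members higher with Tβ-MCA, replicate 5 was the lowest of its group. Its difference from the PBS mean was 22.8% of the mean difference of replicates 3 and 4 in Atp6v1e1 and 56.1% in Rragc, and it lay between these values in the other 7. For Rragd it was 25.7%.

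The second comparison set TCA, and the third GCA, against the same PBS samples. With TCA 0 of 37 members and 0% of all genes tested were called in edgeR, while 546 genes (3.26%) and 1 member had an unadjusted p under 0.05; DESeq2 called 0 members and 1 gene. The member was Atp6v0c, the gene of the proteolipid c ring through which protons pass. It had 299.6, 311 and 304 CPM with PBS and 294, 275 and 265 CPM with TCA, a log2 fold change of -0.13 ± 0.06 (SE; edgeR, adjusted p = 1). Exons of Atp6v0c overlap those of Gm43796 on the same strand, and the pseudogene Atp6v0c-ps1 is in the table, so its reads are uncertain. The 9 members higher with Tβ-MCA did not pass the test with TCA. Fnip2 was at 207, 183 and 175 CPM, Flcn at 59.6, 52.3 and 51.3 CPM and Rragd at 7.20, 4.11 and 5.14 CPM in TCA replicates 3, 4 and 5. Their log2 fold changes against PBS were 0.00 ± 0.15, 0.03 ± 0.16 and 0.25 ± 0.28 (SE).

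The other members called with Tβ-MCA were read in the same TCA samples. Fnip1 was at 138, 133 and 126 CPM, Rragc at 89.5, 79.5 and 81.2 CPM and Tsc2 at 36.7, 33.1 and 32.9 CPM. Atp6v1c1 lay at 47.4, 49.8 and 50.2 CPM and Atp6v0d1, called without Tβ-MCA replicate 5, at 94.9, 88.3 and 90.3 CPM. In these 5 genes the TCA samples overlapped PBS and lay below every Tβ-MCA sample. Slc38a9 was at 15.3, 15.9 and 16.5 CPM and Atp6v1e1 at 686, 607 and 616 CPM, and in both the TCA samples overlapped those of PBS and of Tβ-MCA.

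With GCA 0 members and 0% of all genes tested were called in edgeR, and 591 genes (3.53%) and 0 members had an unadjusted p under 0.05; DESeq2 called 0 members and 0 genes. The lowest p was that of Atp6v0d1, which had 97.9, 99.0 and 98.4 CPM in GCA replicates 3, 4 and 5, above all PBS samples, with a log2 fold change of 0.11 ± 0.06 (SE; edgeR, adjusted p = 0.999). In the members higher with Tβ-MCA the GCA samples were uneven. GCA replicate 4 lay above all PBS samples in 9 of 9 of them, and GCA replicates 3 and 5 in 4 of 9 each. Fnip2 was at 188, 261 and 199.8 CPM, Flcn at 50.4, 73.8 and 59.3 CPM and Rragd at 3.94, 7.22 and 3.94 CPM. In these 3 genes GCA replicate 4 exceeded Tβ-MCA replicate 5. Slc38a9 was at 13.9, 16.9 and 14.7 CPM, Atp6v1c1 at 47.4, 54.0 and 50.1 CPM and Atp6v1e1 at 668, 684 and 575 CPM, where the same held. Fnip1 was at 127, 139 and 119.6 CPM, Rragc at 87.8, 95.2 and 80.2 CPM and Tsc2 at 34.3, 36.3 and 35.1 CPM. In these 3 genes all GCA samples lay below all Tβ-MCA samples. Tcirg1 had 148, 172 and 166 CPM with GCA, Lamtor2 46.1, 49.4 and 51.6 CPM and Atp6v0c 286, 308 and 304 CPM, and each of them overlapped PBS. Without GCA replicate 4, 0 members and 0 genes were called against PBS in edgeR, with 374 genes and 0 members at an unadjusted p under 0.05.

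The bile acids were then compared with each other, in 2 pairs. Tβ-MCA and TCA are both taurine conjugates and differ in the steroid, and by the labels in dose. Against TCA, 5 members were higher with Tβ-MCA and 0 lower in edgeR, beside 3.51% of all genes called, 2.22% higher. Their log2 fold changes were 0.76 ± 0.15 for Fnip2, 0.69 ± 0.16 for Flcn, 0.41 ± 0.08 for Tsc1, 0.35 ± 0.08 for Tcirg1 and 0.31 ± 0.07 for Rragc (SE; edgeR, adjusted p between 0.0343 and 0.0427). Tcirg1, which was not called against PBS, lay at 152, 144 and 143 CPM with TCA, below all PBS and all Tβ-MCA samples. An unadjusted p under 0.05 was reached by 13 members with a positive and 1, Rheb, with a negative change, and by 22.2% of all genes tested. This comparison shares its Tβ-MCA samples with the one against PBS.

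Without Tβ-MCA replicate 5, 13 members were higher than with TCA, beside 15.3% of all genes called, 7.17% higher; Atp6v0c, Lamtor2, Fnip1, Tsc2, Rragd, Atp6v0d1, Atp6v1c1 and Atp6v1e1 were added. Lamtor2 was at 45.9, 46.1 and 48.4 CPM with TCA. Atp6v0c had 336, 329.6 and 301 CPM in Tβ-MCA replicates 3, 4 and 5, all above its TCA samples, with replicate 5 inside the range of PBS. Without any other sample of these groups, that is TCA replicate 3, 4 or 5 or Tβ-MCA replicate 3 or 4, 0 members and 0 genes were called in edgeR, with 9 to 14 members at an unadjusted p under 0.05. That level was reached by 2499 to 3410 of the 17106 to 17145 genes tested in these fits. Without GCA replicate 4 the count stayed at 5, beside 4.38% of all genes.

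GCA and TCA share cholic acid, the dose and the time, and differ in glycine or taurine as the conjugate. Between them 0 members and 0% of all genes tested were called in edgeR, and 412 genes (2.46%) and 0 members had an unadjusted p under 0.05; DESeq2 called 0 members and 0 genes. The lowest p was that of Tsc1, which had 50.2, 56.4 and 52.6 CPM with GCA and 46.4, 49.5 and 45.1 CPM with TCA, a log2 fold change of 0.17 ± 0.08 (SE; edgeR, adjusted p = 1). The approximate 95% intervals of the 37 differences ran from -0.80 to 0.55 on the log2 scale. For Flcn the interval was -0.20 to 0.54 and for Fnip2 -0.15 to 0.55. The estimates of both genes with Tβ-MCA against TCA lay above these intervals. Those estimates have intervals of their own, which overlap them, and Tβ-MCA was not tested against GCA.

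Genes of the same pathway that are not members were taken from a list of 71, of which 65 were in the table and 58 were tested. Against PBS, 4 of the 58 were higher and 1 was lower with Tβ-MCA, beside the 7.62% of all genes called. The same 4 were higher than with TCA, beside 2.22% of all genes tested. Mcoln1, the lysosomal calcium channel upstream of the phosphatase that releases TFEB, had 83.9, 94.9 and 92.8 CPM with PBS and 143, 144 and 107 CPM with Tβ-MCA (log2 fold change 0.54 ± 0.10, SE; edgeR, adjusted p = 0.0208). Wdr7, a rabconnectin subunit that promotes assembly of the V-ATPase, had 33.2, 34.3 and 34.2 CPM with PBS and 53.0, 52.2 and 43.7 CPM with Tβ-MCA (log2 fold change 0.55 ± 0.09, SE; edgeR, adjusted p = 0.0206). The lysosomal amino acid transporter gene Slc36a1 was higher by 0.41 ± 0.08 and the sestrin gene Sesn3 by 1.11 ± 0.28 on the log2 scale (SE; edgeR, adjusted p = 0.0208 and 0.0338). Sesn3 had 5.16, 3.001 and 3.61 CPM with PBS and 11.2, 9.40 and 4.92 CPM with Tβ-MCA, so the groups overlapped through Tβ-MCA replicate 5. Ywhaz, a 14-3-3 protein of the family that holds phosphorylated TFEB, was lower, with a log2 fold change of -0.20 ± 0.06 (SE; edgeR, adjusted p = 0.0432).

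Of the 11 GATOR and KICSTOR genes, which lie upstream of the Rags, 0 passed the test. An unadjusted p under 0.05 was reached by 1 of them, beside 24.9% of all genes tested. Without Tβ-MCA replicate 5, 6 of the 58 pathway genes were higher and 9 lower, beside 8.52% of all genes higher and 9.44% lower. The leucine sensor gene Sesn2 and the mTORC1 inhibitor gene Ddit4 were then lower, by log2 fold changes of -0.58 ± 0.13 and -0.64 ± 0.10 (SE; edgeR, adjusted p = 0.00515 and 0.000568). Tfec, the MiT/TFE gene expressed in macrophages, was also lower in that fit, at -0.81 ± 0.17 (SE; edgeR, adjusted p = 0.0041). The summed monocyte markers were lowest in Tβ-MCA replicates 3 and 4, as given above, and a link to Tfec was not tested. With TCA and with GCA, 0 of the 58 genes were called against PBS in edgeR, with 2 genes at an unadjusted p under 0.05 in each comparison. That level was reached by 3.26% of all genes tested with TCA and by 3.53% with GCA.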

How the data were processed

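RNA of 12 samples was sequenced after a kit that marks strand. The submitters' processing notes name Trimmomatic 0.36, STAR 2.5.3a, featureCounts and Subread 1.5.1, and GRCm38. The authors deposited raw read counts per gene over merged exons, not normalized, and RPKM, the same counts divided by exon length and library size. RPKM recalculated from the counts differed by at most 1.3e-06 of the value. Columns named GA were taken as GCA.

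Counts were tested with the robust quasi-likelihood test of edgeR 4.0.16 in R 4.3.3, after TMM normalization and filterByExpr, over all 12 samples, with Benjamini-Hochberg adjustment over 16761 genes. CPM values are TMM scaled. Intervals of log2 fold changes used 8 residual degrees of freedom. The script was tested on simulated data. Alternatives were DESeq2 1.42.0, limma 3.58.1 on log2(RPKM + 1) and log2(RPKM + 0.1) where the average RPKM was 0.5 or more, other scaling and filters, and samples left out. A count of 3 in a library is 0.0725 to 0.0916 CPM, a floor for counting error only. Plots used matplotlib 3.10.9.

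Values in every sample are given for members called over all samples or without Tβ-MCA replicate 5. The same holds for the lowest p of each comparison and for the folliculin, Rragc and Rragd genes. For the highest and lowest V-ATPase gene by RPKM and for the MiT/TFE genes, the text gives the PBS and Tβ-MCA samples. Other pathway genes are named when called, up to 8 per comparison; Sesn2, Ddit4, Tfec, Lamtor1 and Lamtor4 were added after their values were seen. The members and lists were chosen with earlier results of these data known. Besides the 12 neutrophil and 12 monocyte and macrophage markers, lists of dendritic cell, eosinophil, basophil and mast cell, B cell, T and NK cell and erythroid markers were examined.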

Additional observations from a re-analysis of the deposited data

How the results depend on the processing

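The count of members called with Tβ-MCA against PBS was 9 with edgeR over all samples. It was 0 at an unadjusted p under 0.05 with a fold change of at least 2, 0 with limma on log2(RPKM + 1) without a filter and 0 with only the 2 groups compared. With 1 sample left out it lay between 0 and 12. Against TCA the count was 5. It was 0 at an unadjusted p under 0.05 with a fold change of at least 2, 0 with limma on log2(RPKM + 1), on log2(RPKM + 0.1) and on log2(RPKM + 1) without a filter, 1 with only the 2 groups compared, 8 without a filter on low counts and 14 without Tβ-MCA replicate 5 and GCA replicate 4. With 1 sample left out it lay between 0 and 13. DESeq2 called 10 and 6 members, beside 11.9% and 8.93% of all genes tested. Total library size gave 11 and 6 members, beside 8.4% and 4.62%. In the fit against TCA with 14 members, 15.4% of all genes tested were called. Against TCA, 2.79% of all genes tested had an unadjusted p under 0.05 with a fold change of at least 2. Why the smaller fits lost their calls was not tested. Over the whole table, the 1278 genes called with Tβ-MCA against PBS became 1999 with DESeq2, 861, 689 and 4 with the 3 limma settings in the order above, 2406 without a filter and 0 with only the 2 groups, and the 588 against TCA became 1496, 0, 0, 6, 2077 and 72. With TCA against PBS 37, with GCA against PBS 36 and with GCA against TCA 42 genes were called without a filter, and 0 members. Of the named members' log2 fold changes, 0 were reversed under any alternative; with Tβ-MCA against PBS 133 values of 12 genes stayed on their side of the threshold, 71 lost it and 12 gained it.

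Replicate numbers 3 and 5 are shared by PBS and each bile acid, and 3, 4 and 5 by the bile acids. With the replicate block, 6 members were called with Tβ-MCA against PBS, and 10 against TCA, 9 higher and Rptor lower; 1498 and 2322 genes were called. Against PBS, 5 of the 6 were among the 9 called without the block and Atp6v1d was added (adjusted p = 0.0375), while Flcn, Fnip2, Slc38a9 and Atp6v1e1 were not called (adjusted p = 0.104, 0.107, 0.102 and 0.0625). Against TCA, 4 of the 5 stayed, Flcn was not called (adjusted p = 0.0613) and 6 were added. With TCA against PBS, GCA against PBS and GCA against TCA 0 members were called with the block. The numbers were not treated as pairing the samples, since the lowest correlation of same-numbered samples was 0.081 for Tβ-MCA with TCA and 0.067 for GCA with TCA, and only 2 pairs exist with PBS. In these comparisons 5 of 6 and 4 of 6 samples correlated best with their own number. For Tβ-MCA with TCA the mean correlation was 0.150 between same-numbered samples and -0.074 between the others. For GCA with TCA these means were 0.174 and -0.086. Samples numbered 3 correlated at 0.197 to 0.326 between groups, so the samples of that number share a part of their variation. What the numbers stand for was not tested, and these correlations do not settle whether they pair the samples. The counts of calls were known when this was decided.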

Other observations

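Marker lists of cells other than neutrophils and monocytes also varied. The summed eosinophil markers were highest in replicate 3 with PBS, TCA and GCA (244, 216 and 238 CPM) and lay between 54.1 and 125 CPM with Tβ-MCA, where 1 of 6 was lower than with PBS in edgeR, and 3 of 6 without Tβ-MCA replicate 5. Basophil and mast cell markers summed to 47.2 to 87.3 CPM and dendritic cell markers to 17.5 to 41.01 CPM, with 0 called over all samples and 1 dendritic cell marker higher without that replicate. B cell markers summed to 3.78 to 12.8 CPM, with 1 of 6 lower in either fit. T and NK cell markers summed to 1.24 to 3.38 CPM and erythroid markers to 0.873 to 2.87 CPM, with 0 called over all samples and 1 T and NK cell marker lower without that replicate. Their part in the values of the members was not tested.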
